A study of Mus musculus with 6 samples.

Results

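Downstream peaks of protein-coding genes were defined as NF-YA peaks whose annotated gene had the biotype protein_coding and whose centre lay more than 1000 bp from the transcription start site (TSS) of that gene, on the transcribed side. This rule, which uses position and annotation and no measured level, found 960 of the 9056 peaks in the table, at 805 genes. The peaks come from CUT&RUN (cleavage under targets and release using nuclease) with an antibody against NF-YA. The cells were cultured MuSCs (muscle stem cells, the resident stem cells of skeletal muscle) of wild-type C57BL/6 mice, given as activated and proliferating. There were 3 NF-YA libraries and 3 libraries with control mouse IgG, which carry the same numbers in the labels. The study describes the NF-YA libraries as biological replicates, while the labels do not say which animals or cultures they came from, so the spread given below is that between these libraries. The IgG libraries entered no comparison made here.

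NF-Y is a trimer of NF-YA, NF-YB and NF-YC. NF-YB and NF-YC pair through histone folds, and NF-YA inserts into the minor groove at the CCAAT box, a short element best known from the proximal promoters of cell cycle, metabolic and housekeeping genes. CUT&RUN reads pile up where the antibody tethers the nuclease, so a peak marks NF-YA at or near the DNA and does not by itself show which base pairs are contacted. A peak annotated to a gene by distance may also belong to another promoter of the same gene, to a neighbouring gene or to an enhancer.

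The sequences below show centres of strong downstream peaks, first 5 with a CCAAT box and then 3 without one. Of the 15 strongest peaks, 5 had no complete box within 50 bp of the centre. Each is a window of 50 bp to either side of the peak centre, from the RefSeq genome sequence of GRCm38.p6 (mm10), read 5′ to 3′ on the strand of the gene, with CCAAT, or ATTGG for a box on the opposite strand, in capitals. The windows of *Sin3a*, *Rps6ka5* and *Dcun1d4* lay within 1000 bp of the TSS of another transcript, and those of *Clec11a* and *Kdm6b* lay further than that from any annotated TSS. The windows of *Sp2*, *Ppp2r5a* and *Cirbp* held no complete box, although their peaks did.
Sin3a (chr9:57076057-57076157, plus strand): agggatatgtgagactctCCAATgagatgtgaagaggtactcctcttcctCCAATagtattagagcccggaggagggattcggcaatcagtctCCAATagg
Rps6ka5 (chr12:100725277-100725377, minus strand): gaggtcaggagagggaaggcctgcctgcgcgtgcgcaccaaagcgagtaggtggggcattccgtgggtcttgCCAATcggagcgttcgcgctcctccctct
Dcun1d4 (chr5:73490837-73490937, plus strand): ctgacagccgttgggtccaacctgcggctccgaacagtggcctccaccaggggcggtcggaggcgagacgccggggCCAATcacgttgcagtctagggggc
Clec11a (chr7:44305191-44305291, minus strand): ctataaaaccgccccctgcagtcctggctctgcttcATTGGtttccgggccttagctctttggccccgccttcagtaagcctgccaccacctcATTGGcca
Kdm6b (chr11:69408789-69408889, minus strand): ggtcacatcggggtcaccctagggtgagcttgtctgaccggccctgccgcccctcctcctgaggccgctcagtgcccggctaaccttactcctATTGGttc
Sp2 (chr11:96977826-96977926, minus strand): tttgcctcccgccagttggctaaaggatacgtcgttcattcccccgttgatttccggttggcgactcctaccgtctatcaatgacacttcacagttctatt
Ppp2r5a (chr1:191397389-191397489, minus strand): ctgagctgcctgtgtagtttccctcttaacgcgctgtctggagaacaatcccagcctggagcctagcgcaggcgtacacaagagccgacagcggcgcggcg
Cirbp (chr10:80167549-80167649, plus strand): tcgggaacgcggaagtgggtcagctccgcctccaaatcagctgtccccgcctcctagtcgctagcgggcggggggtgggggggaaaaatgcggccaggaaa
The *Sin3a* window held 3 boxes, all on the gene strand, with centres -30, 2 and 45 bp from the peak centre. The *Clec11a* window held 2 boxes, both on the opposite strand.

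A peak can also hold several boxes away from its centre. The next sequences, each 29 bp long, give single boxes in the peaks of *Sp2*, *Ing1* and *Mamstr* with their distance from the peak centre in the direction of the gene.
Sp2 (88 bp from the peak centre): tgcttcccaatgATTGGttgaaaatgctg
Sp2 (50 bp from the peak centre): cttcacagttctATTGGccagaccaacgt
Ing1 (-33 bp from the peak centre): tgctacagagtcATTGGggggcgggcagt
Mamstr (-16 bp from the peak centre): cgggaaaattagCCAATgaaatgttggaa
Mamstr (57 bp from the peak centre): ttgagggtgtggCCAATcattggttggtc
The *Sp2* peak had 8 boxes along its 669 bp and no complete box within 50 bp of its centre, where the edge of the window cuts the box shown in the second line. In the first *Sp2* line and in the second *Mamstr* line, a CCAAT and an ATTGG stand side by side.

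Windows from genes of the muscle lineage are shown because these genes carry the identity of the cells. *Myod1* encodes the master transcription factor of myogenic commitment, *Cdh15* encodes M-cadherin, and *Mef2d* encodes a MADS-box factor of muscle differentiation.
Myod1 (chr7:46380635-46380735, plus strand): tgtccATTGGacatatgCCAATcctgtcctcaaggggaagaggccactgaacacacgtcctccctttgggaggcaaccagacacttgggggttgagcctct
Cdh15 (chr8:122851728-122851828, plus strand): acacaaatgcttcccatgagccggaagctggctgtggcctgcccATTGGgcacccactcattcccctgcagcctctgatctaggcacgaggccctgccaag
Mef2d (chr3:88146191-88146291, plus strand): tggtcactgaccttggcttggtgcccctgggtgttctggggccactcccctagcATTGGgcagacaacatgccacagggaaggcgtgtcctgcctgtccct
The *Myod1* window held 2 boxes in opposite orientation near its edge. All windows shown here hold a box, which was so for 7 of the 10 downstream peaks at myogenic and muscle stem cell genes. The peaks of *Mymk*, *Sdc4* and *Des* had no box within 50 bp of the centre. The *Mef2d* peak is weak, with levels of 5, 4 and 4 in replicates 1 to 3, close to the floor of 3 reads.

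The peaks were weaker than promoter peaks and about as strong as peaks the same distance upstream of genes. Levels are normalised reads per peak, that is, read counts that the authors scaled by size factors and rounded, with no correction for peak length. The median level of the 960 downstream peaks was 13, 15 and 13 in replicates 1 to 3. The 3533 peaks within 1000 bp of the TSS of a protein-coding gene, called promoter peaks here, had medians of 31, 30 and 32. The 680 distal upstream peaks, more than 1000 bp before the TSS, had medians of 11, 12 and 12.

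On the log2 scale of these medians, downstream peaks stood at -1.18 ± 0.16 (SD, n = 3 libraries) relative to promoter peaks, that is at 0.419, 0.5 and 0.406 times their level. The direction was the same in all 3 libraries, and the two-sided exact sign-flip permutation test over libraries gave p = 0.25, the smallest it can give with 3 libraries. Downstream peaks were also shorter, with a median of 181.5 bp against 254 bp, and per kb of peak the log2 ratio was -0.72. Relative to distal upstream peaks the log2 ratio was 0.23 ± 0.10 (SD, n = 3 libraries; p = 0.25 in the same exact test). This difference was 0 once peaks near any annotated TSS were removed from both classes, since both medians were then 11, 12 and 12.

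**Figure D1:**
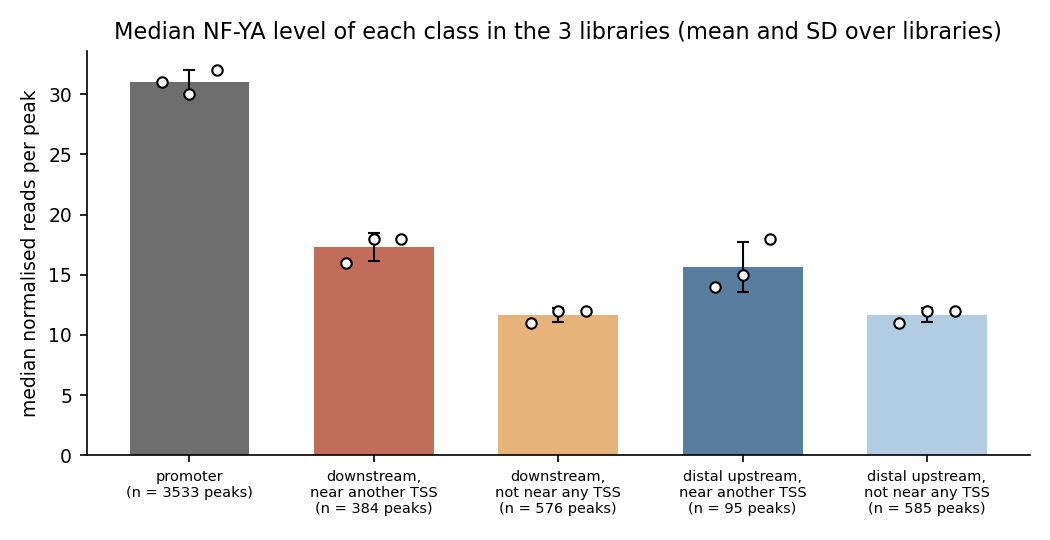
Median NF-YA level of each peak class, in normalised reads per peak (vertical axis), for promoter peaks, downstream peaks and distal upstream peaks, the latter classes divided by whether another annotated TSS lay within 1000 bp. Bars give the mean over the 3 libraries, whiskers the SD and white points the single libraries; downstream peaks not near any TSS sit at 11, 12 and 12, those near another TSS at 16, 18 and 18, and promoter peaks at 31, 30 and 32.

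Downstream peaks held 8.07%, 8.24% and 8.23% of the summed signal of all peaks in replicates 1, 2 and 3. Behind the values stood an estimated 481324, 226909 and 334618 reads in peaks, and the median downstream peak held about 20, 10 and 13 reads. A floor of 3 reads corresponds to listed values of 2, 4 and 3, and 6, 166 and 94 of the 960 peaks were at or below it. Across these peaks, log2(value + 1) correlated between libraries with Pearson's r of 0.857 (replicates 1 and 2), 0.885 (1 and 3) and 0.890 (2 and 3), as a description, since peaks are not replicates and the libraries share one peak set. The median coefficient of variation over libraries was 26.5%, compared with 19.3% for promoter peaks. Among the 51 downstream peaks whose mean reached 100, replicate 1 was the lowest library in 31 (60.8%), and among all 791 peaks of that strength it was the lowest in 416 (52.6%). The study lists shorter reads for replicate 1 than for replicates 2 and 3, and an effect of read length was not tested.

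By position, 860 of the 960 peaks had their centre inside the annotated gene, and the other 100 lay past its 3′ end, at a median of 2306 bp from it. Introns held 699 peaks (72.8%). On the transcript that starts at the gene's 5′ end, 510 of the 960 peaks lay between the first and the second exon, whether or not another transcript had an exon there. The authors annotated peaks to a gene only within 10000 nt of a TSS, so positions further into long genes are left out. No expected share was computed for positions or distances. A further 60 lay in 5′ UTRs, 38 in exons of noncoding transcripts, 33 in 3′ UTRs and 24 in coding exons, while 6 were inside a gene but in none of its transcripts. Of the 100 peaks past a gene end, 34 were inside another protein-coding gene. The peaks in 5′ UTRs had medians of 22.5, 24 and 27, and those in coding exons had medians of 7, 8 and 6.

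Peaks were most frequent close to the limit of 1000 bp, with 221 peaks between 1 and 2 kb, 118 between 2 and 3 kb and 73 between 9 and 10 kb. The median distance was 4457 bp. Upstream of genes the corresponding counts were 135, 80 and 60. The median level over peaks was between 14 and 14.7 in each bin of 1 kb up to 6 kb from the TSS, and between 9.83 and 13.7 in the bins beyond. Just inside the limit were the peaks of *Prss30* at 1004 bp (mean 16), *Slc37a2* at 1007 bp (27) and *Eif4e* at 1014 bp (31). Just outside it were those of *Gamt* at 1000 bp (16.7), *Fam126a* at 997 bp (3.67) and *Parp16* at 996 bp (30.3).

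Many of these peaks lay within 1000 bp of a start site other than the TSS listed for their gene, and fewer lay close to one. For 384 peaks (40%, 95% Wilson interval 36.9 to 43.1) the centre was within 1000 bp of the TSS of another annotated transcript, compared with 95 of 680 distal upstream peaks (14.0%). The difference was 26.0 percentage points (95% interval 21.9 to 29.98, two-sided Fisher's exact test across peaks, p = 8.05e-32). Upstream of a gene almost only TSSs of other genes can count, so this test cannot separate the peaks from the definition of the classes. Of the 384, 326 were near a TSS of the same gene, 92 near a TSS of another gene and 34 near both. Counting only TSSs of other genes, the downstream share was 9.58%, below the 14.0% of distal upstream peaks, a difference that was not tested. In 228 peaks (23.8%) a TSS lay within 250 bp of the centre, compared with 88 (9.17%) for the point 1000 bp further into or past the gene (exact McNemar test across peaks, 189 against 49 discordant peaks, p = 1.39e-20). Only the side away from the listed TSS was compared, so this test cannot separate the peaks from a change in TSS number along the gene. Such tests take peaks as units and describe this peak set, not new animals.

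**Figure D2:**
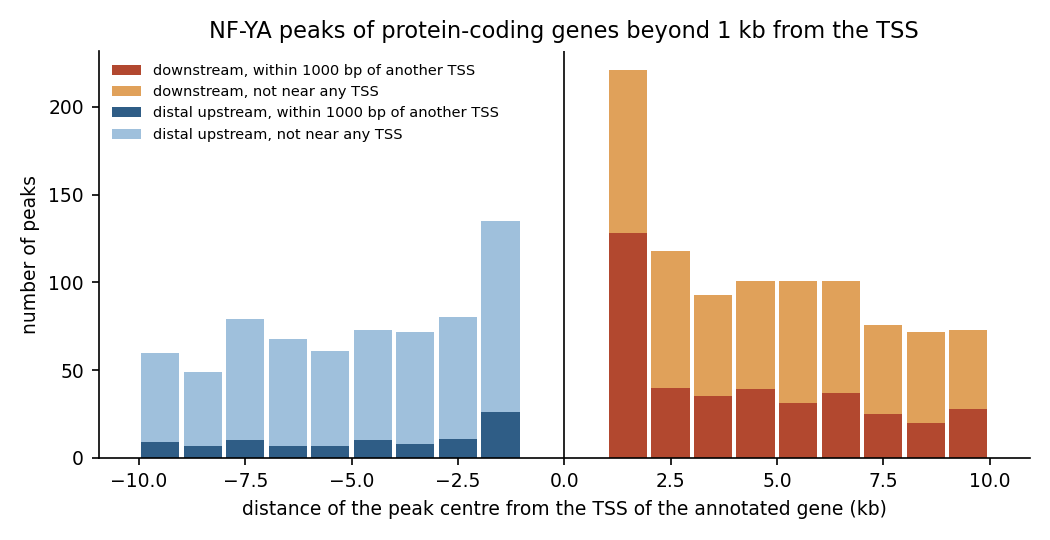
Number of peaks of protein-coding genes (vertical axis) by distance of the peak centre from the TSS of the annotated gene in kb (horizontal axis, upstream negative, bins of 1 kb), with the darker part of each bar for peaks within 1000 bp of another annotated TSS. The bin from 1 to 2 kb downstream holds 221 peaks, 128 of them near another TSS, while the matching upstream bin holds 135 and 26. Upstream of a gene, almost only TSSs of other genes can count. The few peaks beyond 10 kb are not drawn.

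The 384 peaks near another TSS were stronger than the other 576, with medians of 16, 18 and 18 against 11, 12 and 12. The log2 ratio was 0.57 ± 0.026 (SD, n = 3 libraries), in the same direction in each library (exact sign-flip test, p = 0.25). They were also longer, at a median of 203.5 bp against 169.5 bp, and per kb the ratio was 0.40. Around the centre of the peaks near another TSS, the median GC content within 250 bp was 57.3% and the observed to expected ratio of CpG dinucleotides was 0.54. For the other 576 these were 52.4% and 0.22, and for promoter peaks 60.7% and 0.76. Of the 51 peaks that reached a mean of 100, 38 (74.5%) were near another TSS, compared with 346 of the 909 weaker peaks (38.1%; Fisher's exact test, p = 4.47e-07).

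The strongest downstream peaks lay at genes of varied function. The highest was in the first intron of *Sin3a*, the scaffold of a histone deacetylase co-repressor complex, 4067 bp from its TSS (chr9:57075731-57076483). Its levels were 408, 498 and 583 in replicates 1, 2 and 3. Each library had this peak as its highest among the downstream peaks, and it held 10 CCAAT boxes, the most of any. The nearest annotated TSS was 94 bp from its centre, and TSSs of both *Sin3a* and *2700012I20Rik* lay within 1000 bp. *Ing1*, which encodes a reader of methylated histone H3 found in the same co-repressor complex, had a peak 2590 bp downstream with levels of 326, 448 and 471, where replicate 1 was clearly the lowest. *Sp2*, which encodes a zinc finger factor of the Sp family, had levels of 360, 397 and 382 at 5083 bp.

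*Rps6ka5*, which encodes the histone H3 kinase MSK1, followed with 299, 375 and 387. *Hnrnpl*, a splicing regulator gene, had 355, 337 and 302, and here replicate 1 was the highest. *Ppp2r5a*, a regulatory subunit gene of protein phosphatase 2A, had 236, 327 and 342. *Cflar*, the gene of the caspase-8 inhibitor FLIP, had 184, 318 and 280, the widest spread among the 15 strongest peaks, with a coefficient of variation of 26.5%. The remaining means were 244 ± 26.9 for *Dcun1d4*, 225 ± 16.4 for *Morf4l2*, 219 ± 32.7 for *Cirbp*, 213 ± 8.02 for *Zfp574* and 211 ± 4.62 for *Mamstr* (SD, n = 3 libraries). *Cirbp* encodes a cold-inducible RNA-binding protein and *Mamstr* a co-activator of MEF2 factors in muscle.

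**Figure D3:**
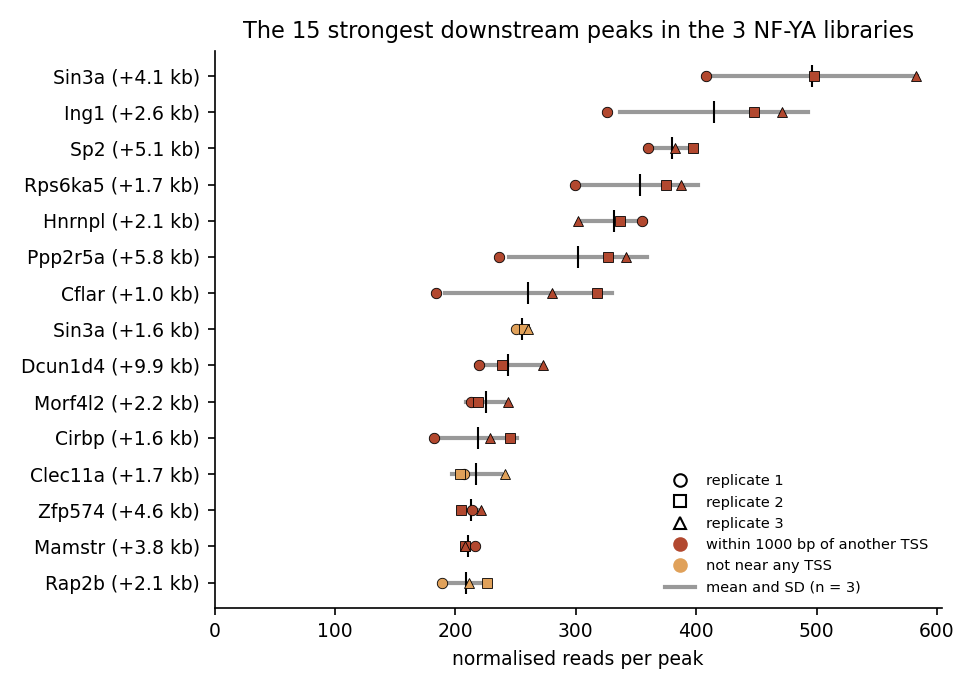
Normalised reads per peak (horizontal axis) of the 15 strongest downstream peaks, one row per peak with the gene and its distance from the TSS; symbols are the 3 libraries, ticks the means and grey lines the SD. *Sin3a* leads with 408, 498 and 583, and 3 of the 15 peaks (light) have no annotated TSS within 1000 bp.

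Strong peaks were also found away from any annotated TSS. A second *Sin3a* peak, 1566 bp downstream (chr9:57073343-57073869), had levels of 250, 257 and 260, so the libraries differed very little. *Clec11a*, the gene of a secreted growth factor of skeletal and blood-forming tissue, had 207, 204 and 241 in intron 3. *Rap2b*, a small GTPase gene, had 189, 226 and 211, and this peak lay in a 5′ UTR. *Fosb*, an AP-1 subunit gene, had 176, 186 and 259, and *Kdm6b*, the gene of a histone H3 lysine 27 demethylase, had 181, 211 and 229. These 5 are the highest of the 576 peaks with no TSS within 1000 bp, whose median is 11.8.

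NF-Y boxes marked the centres of the downstream peaks. CCAAT was searched on both strands within 50 bp of the centre and found in 444 of 960 peaks (46.2%, 95% Wilson interval 43.1 to 49.4). In windows of the same length it was found in 11.9% at 1000 bp towards the TSS and in 12.9% at 1000 bp away from it. The centre alone held a box in 393 peaks and the nearer flank alone in 63 (exact McNemar test across peaks, p = 2.36e-59), and against the further flank the numbers were 377 and 57 (p = 6.06e-59). Over all 9056 peak centres the share was 52.9%. Boxes were densest at the centre itself. They reached the surrounding level at about 100 bp in peaks not near any TSS and at about 140 bp in those near another TSS.

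The share was lower than at promoter peaks (65.5%), with a difference of -19.2 percentage points (95% interval -22.7 to -15.7; Fisher's exact test, p = 8.07e-27). Since CCAAT boxes go with the level, the classes were also compared within quartiles of the level of all peaks. In the lowest quartile the share was 28.5% of 291 downstream and 44.9% of 450 promoter peaks (adjusted p = 2.88e-05, Fisher's exact tests with Benjamini-Hochberg adjustment over 4 quartiles). In the second it was 41.4% against 50.4% (adjusted p = 0.0247, exact) and in the third 54.4% against 67.7% (adjusted p = 0.00023, exact). In the highest quartile it was 70.8% of 171 against 76.02% of 1593, a difference of -5.26 points whose interval of -12.8 to 1.40 includes 0 (adjusted p = 0.135, exact). This comparison within levels was added after the values were seen.

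Against distal upstream peaks (44.1%), the difference was 2.13 percentage points with an interval of -2.76 to 6.99 (Fisher's exact test, p = 0.421), so that differences of up to several points either way remain compatible with the counts. Among downstream peaks, those near another TSS held a box in 55.5% and the others in 40.1% (difference 15.4 points, 8.93 to 21.6; Fisher's exact test, p = 3.59e-06). Between peaks of at least 10 normalised reads the corresponding shares were 64.7% and 49.4%. Peaks up to 2000 bp from the TSS held a box in 51.6% and those beyond 5000 bp in 40.98% (p = 0.0123, exact), and without the peaks near another TSS these were 49.5% and 35.4% (p = 0.0198, exact). Inside genes the share was 47.6%, and past the gene end it was 35.0% of 100 peaks (p = 0.0195, exact). These last tests are each given unadjusted.

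**Figure D4:**
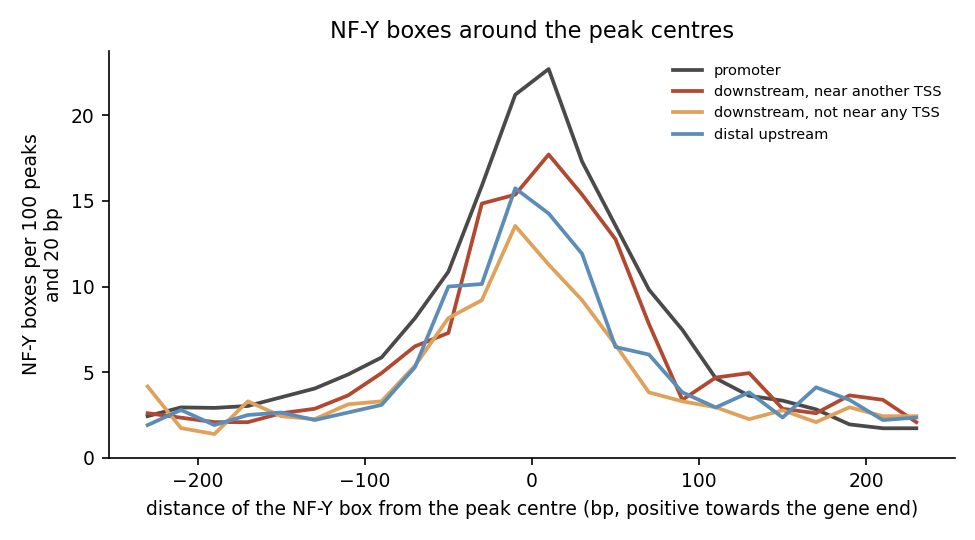
Number of NF-Y boxes per 100 peaks in bins of 20 bp (vertical axis) against the distance of the box from the peak centre in bp (horizontal axis, positive towards the gene end) for 4 peak classes. All lines peak at the centre, with 22.7 boxes at promoter peaks, 17.7 at downstream peaks near another TSS and 13.5 at downstream peaks not near any TSS in their highest bins.

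The number of boxes rose with the level of the peak. In level quartiles of the downstream peaks, from the lowest to the highest, a box at the centre was found in 26.2%, 37.9%, 51.7% and 69.2% (highest against lowest, difference 42.9 points, 34.4 to 50.5; Fisher's exact test, p = 2.76e-21). Counted along the whole peak, 415 peaks had 0 boxes and a median mean level of 8.33, 323 had 1 box and 15.3, 122 had 2 and 27.5, and 69 had 3 and 62. The 19 peaks with 4 boxes had a median of 87, the 7 with 5 had 181 and the 5 with 6 or more had 354. Peaks with more boxes were also longer, from 147 bp at 0 boxes to 326 bp at 3, and a longer peak has more room for a box, so the part of length in this order was not tested.

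The boxes had no set orientation relative to the gene at the centres. Of 573 boxes within 50 bp, 277 (48.3%) read CCAAT on the gene strand (two-sided exact binomial test, p = 0.452). Within 100 bp the share was 45.8% of 826 (p = 0.0163, exact), so whether the threshold was passed depended on the window.

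Other motifs were found at these centres as well. Of 13 further short motifs searched on both strands within 50 bp, 6 were more frequent at the centre than in both flanks 1000 bp away, and the TATA box TATAAA was less frequent (2.40% against 4.48% in either flank, adjusted p = 0.0404). The p-value of each motif is the larger of its exact McNemar tests against the flank nearer to the TSS and the flank further from it, with Benjamini-Hochberg adjustment over the 13 motifs. For the 221 peaks up to 2000 bp from the TSS, the nearer flank itself lies within 1000 bp of that TSS. Base composition was not compared between centres and flanks, here or for CCAAT, so its part in these differences was not tested. The E-box CAGCTG, a sequence bound by MyoD and other basic helix-loop-helix factors, was found in 18.02% of centres, 5.73% of nearer flanks and 5.52% of further flanks (adjusted p = 9.26e-16, exact). The AP-1 site TGANTCA was found in 13.8%, 2.60% and 2.92% (adjusted p = 3.06e-17, exact), and the GC box GGGCGG of Sp and KLF factors in 16.6%, 6.46% and 4.27% (adjusted p = 1.62e-11, exact). The differences for the motifs GGAATG of TEAD, TGTGGT of RUNX and CCGGAAG of ETS factors were smaller, with 8.33%, 11.5% and 1.88% at the centre against 5.52%, 8.33% and 0.417% in the flank with the higher share. They passed with adjusted p-values of 0.0404, 0.0480 and 0.0141 by the exact tests, and did not pass among peaks of at least 10 normalised reads or among those not near any TSS. With a window of 100 bp to either side, TEAD did not pass either and the CREB/ATF motif TGACGTCA did. The motifs CCGGAAG and GGAAGT can overlap, as can GGGCGG with itself. A match gives the letters and does not show that the factor is bound.

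The motifs differed between peaks near another TSS and the rest. The GC box was found in 27.3% of peaks near another TSS and 9.38% of the others (Fisher's exact test, adjusted p = 6.62e-12 over 14 motifs). The AP-1 site went the other way, with 9.38% and 16.7% (adjusted p = 0.00692, exact), as did CAGCTG with 13.3% and 21.2% (adjusted p = 0.00692, exact). For comparison, promoter peaks held the 3 motifs in 40.5%, 2.26% and 5.46%, and all 9056 peaks in 21.3%, 11.5% and 15.1%. Distal upstream peaks held them in 12.9%, 16.8% and 18.4%, so the AP-1 site and CAGCTG were not particular to downstream peaks. The 88 downstream peaks with an AP-1 site and no CCAAT had medians of 9.5, 9 and 9, the 44 with both had 10, 10 and 7.5, and the 400 with CCAAT alone had 19, 21 and 21. The 428 with neither stood at 10, 10 and 10.

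**Figure D5:**
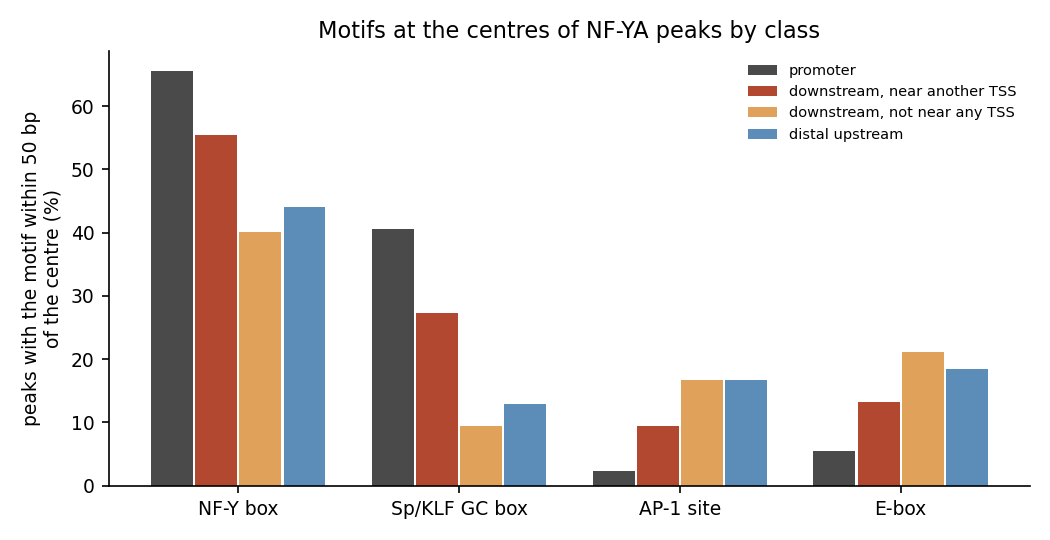
Share of peaks, in %, with each of 4 motifs within 50 bp of the centre (vertical axis) in promoter peaks, downstream peaks near another TSS, downstream peaks not near any TSS and distal upstream peaks. The NF-Y box and the GC box fall from 55.5% and 27.3% near another TSS to 40.1% and 9.38% elsewhere downstream, while the AP-1 site and the E-box CAGCTG stand at 16.7% and 21.2% in the latter.

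Most of the 805 genes had no other peak of this kind. A single downstream peak was found at 680 genes, 2 at 99, 3 at 22 and 4 at 4 genes, which were *Sin3a*, *E2f2*, *Rasa3* and *Mknk2*. At *Sin3a* the 2 strong peaks described above were joined by 2 weak ones with a mean of 11 each. At *E2f2*, which encodes an activating E2F factor of the cell cycle, the strongest of the 4 peaks had 41, 52 and 46 and lay 146 bp from the TSS of another *E2f2* transcript, while the others had means of 14.3, 5 and 4.67. The 4 peaks of *Rasa3*, a GTPase-activating protein gene for Ras and Rap, were of similar strength, with means of 19.7, 18.3, 15.3 and 13.3. Those of *Mknk2*, a kinase gene of the translation factor eIF4E, had means of 31.3, 11, 10.7 and 7.67. *Ncam1*, an adhesion molecule gene of the muscle lineage, had 3 peaks with means of 41.3, 30.3 and 28.7 in its first intron, none of them near an annotated TSS.

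For 528 genes (65.6%) the table held downstream peaks only, and 232 (28.8%) also had a promoter peak. Of all 4178 protein-coding genes with any peak, 3246 had a promoter peak. In the distal upstream class, 227 of 680 peaks belonged to genes with a promoter peak, compared with 275 of 960 downstream peaks. These 275 downstream peaks had medians of 11, 13 and 12, and the promoter peaks of their genes medians of 42, 43 and 43. Pair by pair, the median of log2((downstream + 1)/(promoter + 1)), taken with the highest promoter peak of each gene, was -1.57 ± 0.068 (SD, n = 3 libraries; exact sign-flip test, p = 0.25). In 182 of 275 pairs (66.2%) the downstream peak was the lower in all 3 libraries, and in 52 pairs (18.9%) it was the higher in all 3. Among 227 distal upstream peaks of genes with a promoter peak, 32 (14.1%) were higher in all 3 libraries, and the difference of 4.81 percentage points had an interval of -1.81 to 11.2 (Fisher's exact test, p = 0.186).

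Of the 52, 32 were near another TSS. *Hnrnpl* had 331 ± 26.95 downstream and 27 ± 8 at the promoter, and *Zfp574*, listed as *Znf574*, had 213 ± 8.02 and 4 ± 2 (SD, n = 3 libraries). *Lmna*, which encodes the nuclear lamins A and C, had 145 ± 27.1 at a peak 202 bp from the TSS of another *Lmna* transcript and 16 ± 3.61 at the listed promoter. *Ryr1*, the gene of the calcium release channel of the sarcoplasmic reticulum, had 88.7 ± 15.6 and 11.7 ± 1.53. *Srf*, the gene of serum response factor, had 196 ± 42 and 116 ± 14.2, the smallest ratio among these examples.

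A box at the centre was found in 37.5% of the downstream peaks of genes with a promoter peak and in 49.8% of those of genes without one (difference -12.3 points, -18.98 to -5.38; Fisher's exact test, p = 0.000582). Between peaks of at least 10 normalised reads the shares were 45.7% and 60.2% (p = 0.00167, exact). Peaks near another TSS made up 37.8% and 40.9% of the groups (p = 0.423, exact).

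Genes of the myogenic and muscle stem cell list were represented by 10 downstream peaks at 8 genes, out of 16 with any peak and 37 in all. For comparison, 805 of the 4178 protein-coding genes with any peak (19.3%) had a downstream one. A box at the centre was found in 7 of the 10 peaks, compared with 46.2% of all downstream peaks. The lists were chosen with results of these data known, so their counts are descriptions and were not tested. The strongest lay in the first intron of *Cdh15*, 3812 bp from the TSS, with levels of 43, 83 and 43, so replicate 2 stood apart. A weaker *Cdh15* peak at 2851 bp had 10, 7 and 16. *Mymk*, the gene of the fusion protein Myomaker, had 42, 46 and 45 in its first intron. *Myod1* had 22, 19 and 22 at a peak 1586 bp past the gene end, compared with 52 ± 7.21 at its promoter peak. *Six4* had 11, 9 and 12, *Sdc4* 9, 6 and 8, *Des* 5, 9 and 7 and *Mef2d* 5, 4 and 4, where the values of replicate 2 for *Mef2d* correspond to about 3 reads.

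The E-box CAGCTG was found at the centre of 3 of these 10 peaks, against 18.02% of all downstream peaks. Their windows are shown here with CAGCTG, which reads the same on both strands, in capitals.
Cdh15 (chr8:122850768-122850868, plus strand): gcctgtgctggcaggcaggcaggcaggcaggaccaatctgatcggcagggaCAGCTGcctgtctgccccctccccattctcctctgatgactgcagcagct
Mymk (chr2:27069793-27069893, minus strand): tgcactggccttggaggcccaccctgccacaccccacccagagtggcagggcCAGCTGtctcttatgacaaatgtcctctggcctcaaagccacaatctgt
Sdc4 (chr2:164441191-164441291, minus strand): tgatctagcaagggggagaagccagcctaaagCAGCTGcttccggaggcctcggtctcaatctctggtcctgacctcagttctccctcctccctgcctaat
In the *Mymk* and *Sdc4* windows no CCAAT was found within 50 bp of the centre, although their whole peaks held 2 and 1 boxes.

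Of 33 chromatin genes, 15 had any peak and 7 (46.7% of the 15) a downstream peak, compared with 19.3% of all protein-coding genes with any peak. A box at the centre was found in 6 of 8 such peaks, compared with 46.2% of all downstream peaks. The list was chosen with results of these data known, so these shares were not tested. Besides *Kdm6b* and *Lmna*, *Arid1a*, a subunit gene of the BAF remodelling complex, had 60, 86 and 70, and its relative *Arid1b* had 34, 27 and 33. *Kmt5b*, a histone H4 lysine 20 methyltransferase gene, had 43, 33 and 58, 421 bp from another *Kmt5b* TSS. *Prmt1*, an arginine methyltransferase gene, had 56, 59 and 69, far below the 366 ± 15.7 of its promoter peak. *Hdac5* had 5, 1 and 4, where the value of replicate 2 is below the floor of 3 reads.

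Among 19 genes of NF-Y and partner factors, 13 had any peak and 3 (23.1% of the 13) a downstream peak, close to the share over all genes. *Nfyc*, the gene of an NF-Y subunit, had 63, 64 and 96 in its first intron, 473 bp from another *Nfyc* TSS, with 4 boxes in the peak. *Sp2* had a weak second peak of 8, 13 and 3 beside the strong one, and the peak at *Klf13*, with 6, 0 and 0, rested on replicate 1 alone. Of 15 AP-1 and immediate early genes, 8 had any peak and 3 (37.5% of the 8) a downstream peak, compared with 19.3% over all genes with any peak. They were *Fosb*, *Bach1* with 11, 15 and 13 and *Egr1* with 11, 12 and 12.

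Cell cycle genes are classical NF-Y targets at their promoters. Of the 29 in the list, 21 had any peak, 18 a promoter peak and 2 (9.52% of the 21) a downstream peak, a difference from the 19.3% over all genes that was not tested. The genes were *Ccnd3*, a cyclin D gene, with 35, 28 and 33, and *Cdkn1b*, the gene of the inhibitor p27, with 25, 31 and 31 at a peak past the gene end and 321 bp from the TSS of the noncoding gene *Lockd*. *E2f2*, described above, is not in this list. Of 29 genes of Notch, Wnt, TGF-beta and FGF signalling, 8 had any peak and 1, *Notch3*, a downstream peak, with 17, 22 and 20 at the stronger of its 2.

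In sterol and fatty acid synthesis, 13 of 15 genes had any peak, all of them a promoter peak. A downstream peak was found at 3 (23.1% of the 13), compared with 19.3% of all protein-coding genes with any peak. *Fdft1*, the squalene synthase gene, had 116, 99 and 95 at 1527 bp, in a 5′ UTR 254 bp from another *Fdft1* TSS and with 3 boxes at the centre, compared with 14 ± 2.65 at the listed promoter. *Scd2*, a fatty acid desaturase gene, had 3 weak peaks, one of which, with 2, 22 and 10, differed widely between libraries. In the list of ER stress and chaperone genes, 11 of 14 had any peak, all of them a promoter peak. Of the 11, 3 (27.3%) had a downstream peak, led by *Herpud1* with 23, 49 and 30. Of 22 extracellular matrix and adhesion genes, 5 had any peak and 2 (40% of the 5) had downstream peaks. These were *Col5a1* with 35, 41 and 33 and *Lama5* with 22, 22 and 32 at the strongest of 3. Of 12 p53 and apoptosis genes, 8 had any peak and 2 (25% of the 8) had downstream peaks. These were *Mcl1* with 17, 12 and 24 at the stronger of 2 and *Gadd45b* with 10, 3 and 7, each past the gene end. The shares rest on few genes and were not tested against the 19.3% over all genes.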

How the data were processed

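The levels of 3 NF-YA CUT&RUN libraries were analysed, and no values of the 3 IgG libraries were used. According to their methods and processing notes, the authors trimmed reads with Trimmomatic 0.39, aligned them to mm10 with STAR 2.7.9a, removed duplicates with Picard 2.25.5, found peaks per NF-YA library with MACS2 and the IgG library of the same number as control, merged them, counted reads with featureCounts and normalised with DESeq2 1.30.0. The deposited values carry the unit score: counts divided by a size factor and rounded, which keeps no change common to all peaks. The same libraries selected the peaks, which favours values high by chance. Each peak was annotated by the authors to a gene with a TSS within 10000 nt.

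Distances were recomputed and matched within 0.5 bp. Gene coordinates were identical in GENCODE M21 for 946 of the 960 downstream peaks. TSSs, exons and genes came from GENCODE M21, and sequences from GRCm38.p6. RefSeq promoter windows held 129 peak centres, 5 of them among the 576 peaks without a GENCODE TSS within 1000 bp. The table held 0 sample columns without a match. Reads behind the rounded values were estimated by maximum likelihood from the spacing of the values. For replicate 1 a second solution (477012 in place of 481324 reads in peaks) fitted almost as well. No count model was used.

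Level ratios are log2 ratios of class medians per library with a two-sided exact sign-flip permutation test. Shares carry 95% Wilson intervals, differences Newcombe intervals, and tests are two-sided exact Fisher, McNemar or binomial tests across peaks. Intervals and floors cover counting error only. Correlations used a pseudocount of 1. Peaks named were the 15 highest, the 5 highest without a TSS within 1000 bp, those of genes with most peaks, of genes in 10 lists, and those beside the distance limit. Examples among peaks higher than their promoter, and *Ncam1*, were chosen after their values were seen. The values of some list members are not reported here. The members, lists and motifs were chosen with earlier results of these data known. Functions were tested on simulated data. Tools were pysam 0.24.0, statsmodels 0.14.6, scipy 1.17.1, numpy 2.4.6, matplotlib 3.10.9 and pandas 2.3.3 under Python 3.11.15.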

Additional observations from a re-analysis of the deposited data

How the results depend on the processing

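Of 83 alternatives over 11 results, 58 left the result within its spread or with its test unchanged in side. The log2 level ratio of downstream to promoter peaks was -0.92 with a minimum mean of 10, -0.72 per kb and -1.41 without peaks near any TSS. That to distal upstream peaks was 0.081 per kb, 0.12 with a limit of 2000 bp and 0 without peaks near any TSS, and there the difference in CCAAT share turned to -3.14 percentage points (exact p = 0.284). The share of peaks near another TSS was 30% within 500 bp, 58.5% within 2000 bp, 44.9% with a minimum mean of 10, 35.9% with TSSs of protein-coding genes and 29.3% with GENCODE basic transcripts. The log2 ratio of these peaks to the rest was 0.48 with a minimum mean of 10, 0.40 per kb, 0.73 with the highest peak per gene, 0.74 within 500 bp, 0.78 with basic transcripts and 0.71 among peaks with CCAAT. The ratio to the promoter peak of the same gene was -1.13 with a minimum mean of 10, -1.01 per kb, -1.44 with the highest peak per gene and -1.75 without peaks near any TSS. Orientation gave -4.24 percentage points from an even split within 100 bp (exact p = 0.0163). Of the other motifs, 3 were more frequent at the centre with a minimum mean of 10 and 3 without peaks near any TSS, in place of 6. The alternatives with basic transcripts and with CCAAT peaks were chosen after seeing the data.

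Leaving out each library in turn gave -1.28 to -1.13 for downstream to promoter peaks, 0.18 to 0.28 for downstream to distal upstream peaks, 0.56 to 0.58 for peaks near another TSS to the rest, -1.59 to -1.53 against the gene's own promoter peak and 40.8 to 41.7 percentage points between level quartiles. No paired analysis was possible because values of only the NF-YA libraries were analysed, so the shared numbers link no 2 groups. With 3 libraries the exact permutation test over libraries cannot go below p = 0.25. At replicate 2, the library with the fewest estimated reads in peaks, 166 of the 960 peaks were at or below 3 reads, so levels of single weak peaks are uncertain.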

Other observations

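The genes *Tef*, *Per1* and *Nr1d1* were in none of the lists and were picked after their values were seen. *Tef*, a PAR-domain leucine zipper gene of clock output, had 3 downstream peaks, and the strongest, 8776 bp from the TSS and 151 bp from another *Tef* TSS, had levels of 128, 152 and 163, compared with 78.7 ± 14.2 at its promoter peak (SD, n = 3 libraries). *Per1*, a negative limb gene of the clock, also had 3, the strongest with 91, 69 and 90, below the 391 ± 38.3 of its promoter peak. *Nr1d1*, the gene of the nuclear receptor REV-ERB alpha, had 2 downstream peaks, the stronger with 62, 49 and 51 at 1249 bp, where the promoter peak had 20 ± 8.72. Other clock genes were not counted, so these values say nothing of the clock genes as a group.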
